A study of Mus musculus with 2 samples.

Results

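The creatine cycle genes described here are Ckb, Ckmt1, Ckmt2, Gatm, Gamt, Slc6a8 and Alpl, 7 genes in all. Of these, 6 are among the 15523 named genes with at least 1 read in the series, and Ckmt1 had none. They were taken as a list of symbols, with the reads of every annotated transcript counted singly and summed to genes. The tissue was interscapular brown fat, a depot that makes heat, and its poly(A)+ RNA came from male wild type C57BL/6N mice of 20 weeks. Native RNA molecules were read singly on a nanopore. The cold library came from a pool of 3 mice housed singly at 4 °C for 24 h. The labels give the other library only as a control, and the housing text gives 22 to 24 °C in general. The treatment text of the control repeats the cold exposure, which its own treatment label contradicts, and how many animals it pooled is not given in the sources used here. Both extraction texts name another fat depot, eWAT. There was 1 library per group, so no spread between animals could be measured and no test between conditions was made. Each range in parentheses is a 95% counting interval. It covers counting error between these libraries and not the variation between mice.

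Creatine kinases move a phosphate group between ATP and creatine, and phosphocreatine carries that phosphate between the mitochondria and the cytosol. In brown and beige fat a futile form of this cycle has been described, in which phosphocreatine is broken down again without doing work, so that ATP is used and heat is released. Creatine itself is made from arginine and glycine in a pair of steps by GATM and GAMT, or is taken up from blood by the transporter SLC6A8. CKB is the cytosolic brain-type kinase, CKMT1 and CKMT2 sit between the mitochondrial membranes, and ALPL, tissue-nonspecific alkaline phosphatase, has been proposed as the enzyme that hydrolyses phosphocreatine.

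Annotated transcripts of Ckb and of Slc6a8 differ at the following junctions, which are shown because the division of reads between transcripts rests partly on them. Sequences are from GENCODE mouse release M21 on GRCm38, written 5′ to 3′ along the gene. In the first pair the lower case letters are the end of Ckb exon 6 and the capitals are what follows it, exon 7 in Ckb-201 (chr12:111669985-111670191, minus strand, with intron 6 left out) and intron 6 in Ckb-204 (chr12:111670132-111670191, minus strand).
Ckb-201: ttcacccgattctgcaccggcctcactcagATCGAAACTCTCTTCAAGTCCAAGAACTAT
Ckb-204: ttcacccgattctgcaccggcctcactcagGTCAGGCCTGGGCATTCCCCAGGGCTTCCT
In the second pair the capitals are 15 coding bases at the end of Slc6a8 exon 9 (chrX:73680057-73680071, plus strand) that Slc6a8-201 holds and Slc6a8-203 lacks, between the end of the shared part of exon 9 and the start of exon 10.
Slc6a8-201: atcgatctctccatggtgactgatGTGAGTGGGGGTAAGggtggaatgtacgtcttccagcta
Slc6a8-203: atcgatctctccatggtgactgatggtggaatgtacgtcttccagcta
The Ckb pair shares its first 30 letters and then diverges into exon or intron, whereas the Slc6a8 pair differs by the insert alone.

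Ckb (chromosome 12, 111669361 to 111672338, minus strand) was the gene that stood out. It had 49 reads in the control library and 1089 in the cold library. Per 1000000 reads of the scaled library size, a unit written RPM from here on, its level was 30.7 (22.7 to 40.6) in the control library against 842 (792 to 893) in the cold one. These intervals lie far apart, and the ratio was 27.4-fold in favour of cold (20.6 to 37.3). Bulk RNA does not separate more cells of a type from more RNA per cell. As a share of all reads, Ckb went from 0.00289% (0.00214 to 0.00381) to 0.0896% (0.0843 to 0.0951). Ordered by read count, with no division by length, Ckb was gene 2879 of the control and gene 123 of the cold library. Setting Ckb against an abundant fat cell gene in the same library needs no scaling between libraries. Per 1000 reads of Ucp1, the uncoupling protein of brown fat, there were 3.30 Ckb reads in the control library against 75.0 in the cold one. Per 1000 reads of Fabp4, the fatty acid binding protein of adipocytes, there were 2.38 and 52.4. Both references give a difference of over 20-fold in the same direction as the scaled ratio.

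Over both libraries, 3 of the 7 genes (Ckb, Ckmt2 and Alpl) had at least 20 summed reads and a cold level at least 2-fold higher, with an interval above a ratio of 1, and 0 were lower by the same rule. Of all 7515 named genes with at least 20 summed reads, 4.18% met this rule in the higher direction and 4.07% in the lower. Of the 7 genes, 4 reached 20 summed reads. Slc6a8 was the fourth, while Gamt, Gatm and Ckmt1 had 10, 3 and 0 reads in all and could not have met the rule. Of the 44 annotated transcripts of the 7 genes, 15 had reads. The median log2 ratio of the 4 was 2.07, beside 0.00 for all genes tested. The plot of levels by library shows the size of each difference against its counting error.

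**Figure D1:**
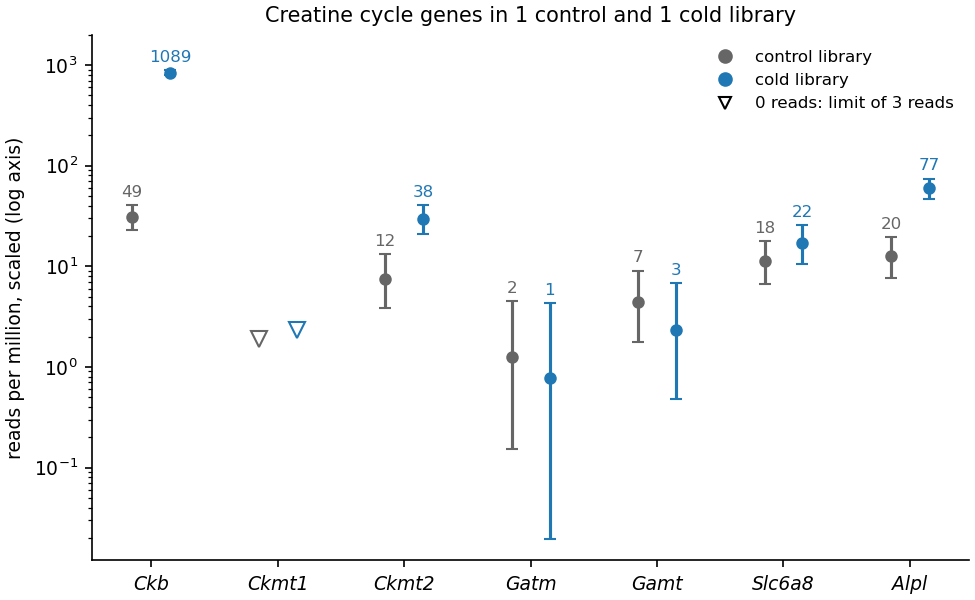
Level of each creatine cycle gene in the control (grey) and cold (blue) library, in RPM of the scaled library size on a log axis, with 95% Poisson intervals and the read count above each point. Ckb, Ckmt2 and Alpl have separate intervals in the 2 libraries, Slc6a8, Gamt and Gatm overlap, and the open triangles for Ckmt1 mark the level of 3 reads, the limit that 0 reads allow.

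Among the 2672 named genes with at least 100 summed reads, Ckb had the highest ratio. Likeness to Ckb can be measured over only 2 libraries, as the distance between log2 ratios, and the nearest genes were Gmpr (159 and 2769 reads), Slc25a34 (11 and 140 reads) and Nnmt (32 and 296 reads), at log2 distances of 0.34, 0.86 and 1.27. The ratios of Gmpr and Slc25a34 were 21.5 (18.3 to 25.4) and 15.7 (8.51 to 32.2), and both intervals overlap that of Ckb. The ratio of Nnmt was 11.4 (7.91 to 17.0), an interval below that of Ckb. Gmpr is a reductase of purine nucleotides, Slc25a34 a mitochondrial carrier, and Nnmt methylates nicotinamide.

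**Figure D2:**
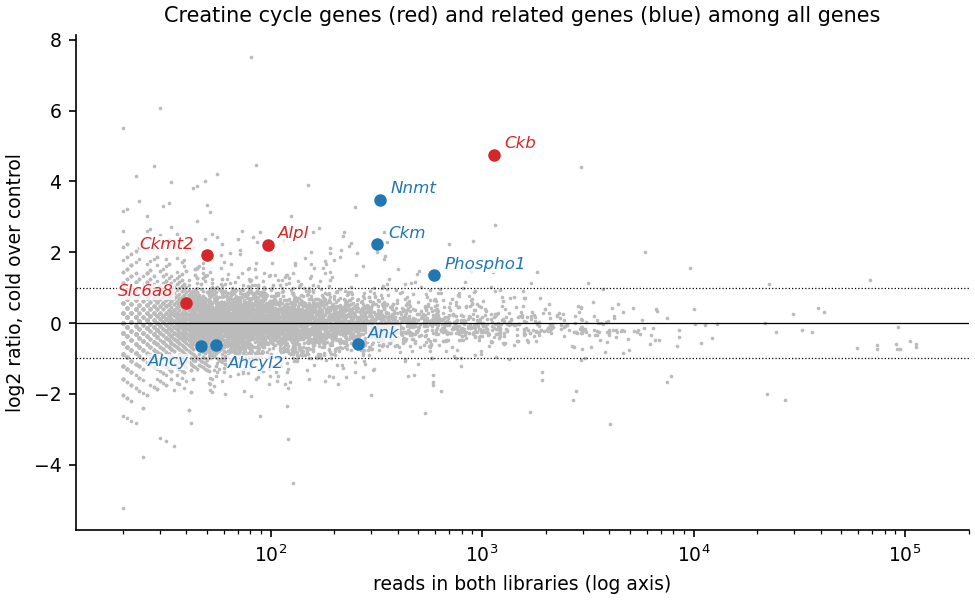
Each grey point is a gene with at least 20 reads over both libraries, with summed reads on a log axis and the log2 ratio of cold to control on the other axis. The dotted lines mark a 2-fold difference, red points are the 4 creatine cycle genes with enough reads, and blue points are the 3 highest and 3 lowest of the related genes. Ckb lies at 4.76, above every gene with as many reads.

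The reads of Ckb fell on 2 of its 5 annotated transcripts. Ckb-201, the protein-coding form with 8 exons and 1472 bases, had 47 reads in the control library against 994 in the cold one, a ratio of 26.1 (19.5 to 35.7). Ckb-204, annotated as a retained intron form of 2839 bases, had 2 and 95 reads, a ratio of 58.6 (15.8 to 491). Ckb-204 keeps introns 1 to 6, which add 1423 bases, and has only intron 7 removed. Its share of Ckb reads was 4.08% (0.498 to 14.0) in the control library against 8.72% (7.12 to 10.6) in the cold one. The difference of 4.64 points had an interval of -5.11 to 8.11, so a change in the share was not detectable at the 49 reads of the control. Reads start at the 3′ end, and the nearest intron that separates these forms, intron 6 of 147 bases (shown above), begins 571 bases from the transcript end. A shorter read could not tell them apart by sequence. Over the whole libraries, transcripts annotated with a retained intron took 2.06% of reads (2.04 to 2.08) in the control library against 2.11% (2.08 to 2.13) in the cold one. The other 3 Ckb transcripts, all of the retained intron type, were not listed in either library. Annotated processed copies of Ckb exist, of which Gm12892 shares 45.2% of its 31-base words with Ckb-201, but Gm12892, Ckb-ps1 and Ckb-ps2 had 0 reads in both libraries.

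**Figure D3:**
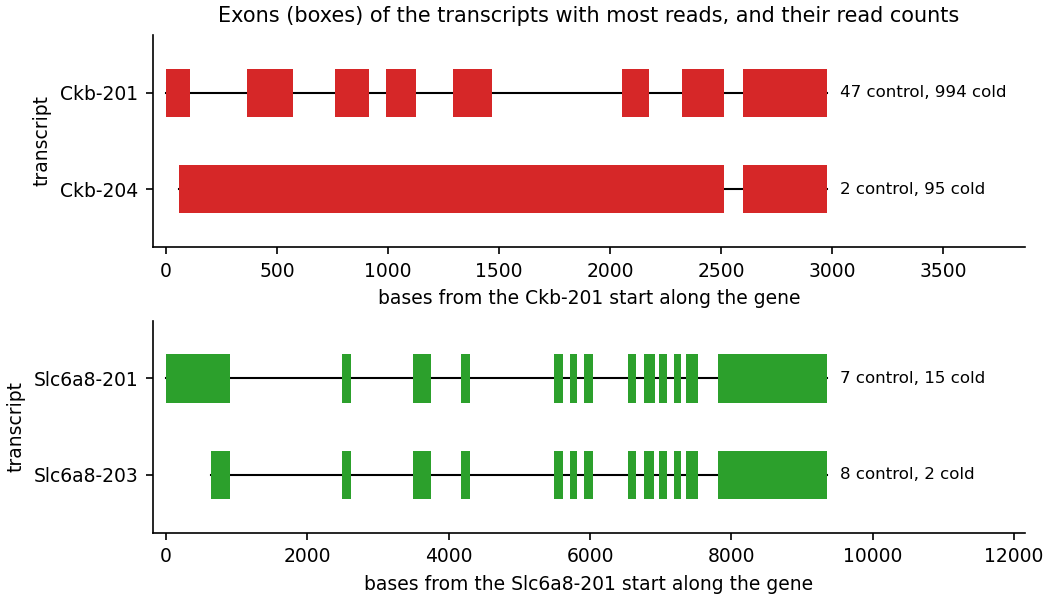
Exons of the main transcripts of Ckb and Slc6a8 as boxes, drawn to scale from the start of Ckb-201 or Slc6a8-201, with introns as lines and read counts at the right. The reads of Ckb-201 and Ckb-204 were both more numerous in the cold library, while Slc6a8-201 had 7 and 15 reads and Slc6a8-203 had 8 and 2.

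The 250 bases before the annotated Ckb start are printed because Ckb had the largest difference (RefSeq, GRCm38.p6, chr12:111672339-111672588, minus strand, 5′ to 3′). Capitals mark the matches to the letters TATAAA of the TATA box and CCAAT of the CCAAT box, searched on both strands.
Ckb: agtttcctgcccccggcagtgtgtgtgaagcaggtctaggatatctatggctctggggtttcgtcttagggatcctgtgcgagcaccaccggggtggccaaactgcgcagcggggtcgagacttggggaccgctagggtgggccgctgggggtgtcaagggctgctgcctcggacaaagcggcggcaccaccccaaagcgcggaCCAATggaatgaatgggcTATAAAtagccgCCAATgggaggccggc
The TATAAA match begins 28 bases before the start, and CCAAT matches begin 46 and 16 bases before it. Of 32851 windows of this length before RefSeq starts, 12.4% hold TATAAA and 33.8% hold CCAAT. The letters TNAAGGTCA of the oestrogen-related receptor element, held by 1.14% of windows, and TGACGTCA of the cAMP response element, held by 1.55%, were in 0 of the 8 windows found for 6 of the creatine cycle genes. Ckmt2 had 2 CCAAT matches and no TATAAA. The windows of Alpl had a TATAAA match before its downstream start only and no CCAAT. These are descriptions of letters in these windows.

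Of the mitochondrial kinases, only Ckmt2 was read. Ckmt2 (chromosome 13, 91853387 to 91876885, minus strand), the sarcomeric form that is also made in brown fat, had 12 reads in the control library against 38 in the cold one. Its levels were 7.52 (3.89 to 13.1) and 29.4 RPM (20.8 to 40.3), a ratio of 3.90 (2.00 to 8.21). All of these reads were on its single annotated transcript, Ckmt2-201 of 1486 bases. A short gene annotated as antisense, 1700119I11Rik, lies within Ckmt2, and how the counting treated strand is not given in the sources used here. Ckmt1 (chromosome 2, 121357714 to 121363737, plus strand), the ubiquitous form, had 0 reads in both libraries on all 10 of its transcripts. The limit of 3 reads taken for a count of 0 is 1.88 RPM in the control library against 2.32 in the cold one. The upper ends of the wider 2-sided interval given for the other genes would be 2.31 and 2.85 RPM.

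The make-up of creatine kinase transcripts differed between the libraries, a comparison that needs no scaling. Here the muscle kinase gene Ckm, which is not one of the 7 genes, was counted with Ckb, Ckmt1 and Ckmt2. Ckb gave 49 of 127 creatine kinase reads in the control, or 38.6% (30.1 to 47.6), and 1089 of 1381 in the cold library, or 78.9% (76.6 to 81.0). Its share was thus 40.3 points higher (31.3 to 48.5). Ckm gave 52.0% (42.9 to 60.9) and 18.4% (16.4 to 20.5), although its own count was 66 in the control library against 254 in the cold one. Ckmt2 gave 9.45% (4.98 to 15.9) and 2.75% (1.95 to 3.76). The rest of the kinase reads therefore made up a smaller share with cold, although Ckm and Ckmt2 each had more reads there.

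**Figure D4:**
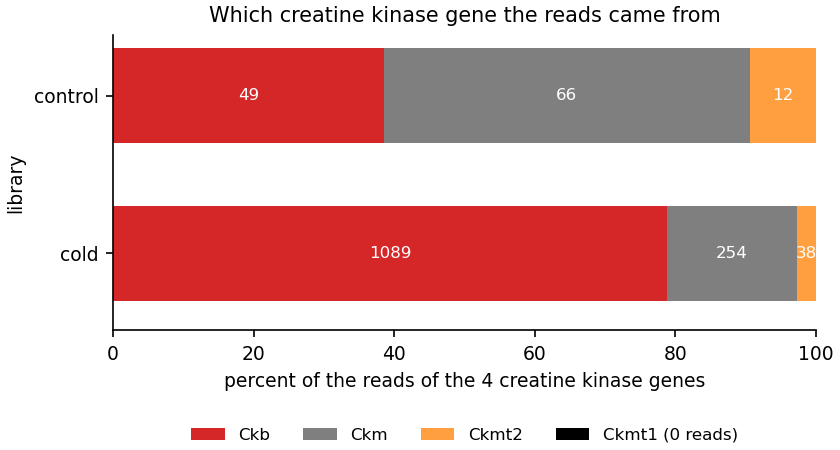
Percent of the reads of the 4 creatine kinase genes that came from each gene, in the control and the cold library, with read counts inside the bars. Ckb filled 38.6% of the control bar and 78.9% of the cold bar, and Ckmt1 had no reads.

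Skeletal muscle RNA was more abundant in the cold library, and this stands beside Ckmt2 and Ckm, which muscle makes in quantity. The 25 muscle markers, with Ckm among them, summed to 851 reads in the control library against 2829 in the cold one, 0.0501% and 0.233% of all reads and a ratio of 4.10 (3.80 to 4.43). None of the 25 was at 0 in both libraries, 24 reached 20 summed reads, and 23 of these were at least 2-fold higher with an interval above 1. Acta1, skeletal actin, had 145 and 550 reads, and Atp2a1, the fast muscle calcium pump, 71 and 285. The interval of Ckmt2 (2.00 to 8.21) includes the ratio of the marker sum. Set against Ckm, there were 18.2 Ckmt2 reads per 100 Ckm reads in the control library against 15.0 in the cold one, and the share of Ckmt2 in the sum of both differed by -2.37 points (-12.6 to 5.33). A difference between Ckmt2 and Ckm was not detectable at this depth, and the part of muscle RNA in the Ckmt2 result was not tested. For Ckb the ratio was larger than that of the muscle marker sum. Single markers with enough reads ranged from 1.46 to 17.3, the highest being Myh7 with 3 and 42 reads (5.52 to 87.1). That interval includes the Ckb ratio, and the part of muscle RNA in the Ckb result was not tested. There were 74.2 Ckb reads per 100 Ckm reads in the control library against 428.7 in the cold one.

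Creatine synthesis genes were barely read in either library. Gatm (chromosome 2, 122594467 to 122611303, minus strand), which makes guanidinoacetate from arginine and glycine, had 2 reads in the control library against 1 in the cold one, all on Gatm-201. Counts this low give no ratio. Gamt (chromosome 10, 80258151 to 80261012, minus strand), which methylates guanidinoacetate to creatine, had 7 and 3 reads, or 4.39 (1.76 to 9.04) and 2.32 RPM (0.478 to 6.78). The Gamt ratio was 0.528 (0.0882 to 2.32), so neither a rise nor a fall could be told from counting error. With Gamt-202 alone the log2 ratio was -1.64, against -0.83 for the gene, on fewer reads still. Of the Gamt reads, 5 in the control library against 1 in the cold one were on Gamt-202, and 2 and 1 on Gamt-201, whose exon 5 is 48 bases longer. A single cold read was on the retained intron form Gamt-204.

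The creatine transporter gene Slc6a8 (chromosome X, 73673150 to 73682502, plus strand) had 18 reads in the control library against 22 in the cold one. Its levels of 11.3 (6.69 to 17.8) and 17.0 RPM (10.7 to 25.7) overlapped, with a ratio of 1.51 (0.772 to 2.98). Its reads were on 5 of 13 transcripts. Of the transcript shares compared here, with all transcripts of a gene in the denominator, only that of Slc6a8-203 differed by more than counting error. No adjustment was made for the number compared. Slc6a8-201, of 3964 bases, had 7 reads in the control library against 15 in the cold one, a share of 38.9% (17.3 to 64.3) and 68.2% (45.1 to 86.1). Slc6a8-203, of 3314 bases, had 8 and 2 reads, a share of 44.4% (21.5 to 69.2) and 9.09% (1.12 to 29.2). The difference for Slc6a8-203 was -35.4 points, with an interval of -58.2 to -8.04 that leaves out 0, while that for Slc6a8-201 was 29.3 points (-1.39 to 53.5). With only protein-coding transcripts in the denominator the differences were -38.9 points for Slc6a8-203 and 39.6 for Slc6a8-201. No interval was computed for these, so whether Slc6a8-203 alone differs may depend on the denominator. Counted alone, Slc6a8-201 had a ratio of 2.64 (1.01 to 7.66), which meets on its 22 reads the 2-fold rule that the summed gene did not meet. Both ratios were above 1, but the interval of the gene includes 1, and Slc6a8-201 supplied 22 of its 40 reads. Slc6a8-203 alone had a ratio of 0.308 (0.0319 to 1.54). The ratios for Slc6a8 thus lay on both sides of 1 depending on the transcript counted. The interval of Slc6a8-203 includes 1, so a fall could not be told from counting error on its 8 and 2 reads. An opposite direction between transcripts was not shown.

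These Slc6a8 forms differ by the 15 bases of exon 9 shown above and by their start, which lies 635 bases further downstream in Slc6a8-203. Slc6a8-201 was the only form with reads that has the longer exon 9. The forms with the shorter one, Slc6a8-202, Slc6a8-203, Slc6a8-204 and Slc6a8-212, together gave 11 of 18 reads in the control, or 61.1% (35.8 to 82.7), and 7 of 22 in the cold library, or 31.8% (13.9 to 54.9). The difference of -29.3 points had an interval of -53.5 to 1.39, which includes 0. In the forms that end where Slc6a8-201 does, a read must extend 1918 bases from the transcript end to reach the junction after exon 9. Slc6a8-204 and Slc6a8-212 end upstream of that and need fewer, and on which feature each read was assigned is not given in the sources used here. With 40 reads in all, the division between forms is a description of few molecules.

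Alpl (chromosome 4, 137741733 to 137796384, minus strand) had 20 reads in the control library against 77 in the cold one. Its levels were 12.5 (7.66 to 19.4) and 59.5 RPM (47.0 to 74.4), which do not overlap, and the ratio was 4.75 (2.87 to 8.20). Of its 8 transcripts, Alpl-201, which begins at the upstream start, had all 20 control reads and 75 of 77 cold reads, or 97.4% (90.9 to 99.7). Alpl-205, which begins at the downstream start, and Alpl-208 had 1 read each, in the cold library. The related intestinal and embryonic-type phosphatase genes Alpi, Akp3 and Alppl2 had 0 reads in both libraries. Phospho1, another phosphatase of phosphorylated small molecules, had 193 control and 402 cold reads, a ratio of 2.57 (2.16 to 3.07). The share of Alpl in the reads of Alpl and Phospho1 was 9.39% (5.83 to 14.1) and 16.1% (12.9 to 19.7), a difference of 6.69 points (1.13 to 11.5). The interval of the Alpl ratio also includes the 4.10-fold of the muscle marker sum, whose part in the Alpl result was not tested.

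The ratios of the creatine cycle genes differed among themselves by more than counting error in most pairs. Comparing 2 genes within the same libraries cancels the scaling. The ratio of Ckb was 7.02 times that of Ckmt2 (3.13 to 14.7), 5.77 times that of Alpl (3.08 to 10.5) and 18.2 times that of Slc6a8 (8.54 to 37.9). The ratio of Slc6a8 was 0.318 times that of Alpl (0.134 to 0.761). Ckmt2 against Alpl, at 0.823 (0.341 to 2.05), and Ckmt2 against Slc6a8, at 2.59 (0.963 to 7.06), could not be told apart. Intervals for these 6 pairs were not adjusted for their number.

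Levels were also divided by the length of the gene's transcripts, averaged over its reads, which lowers genes with long transcripts. Per kilobase, Ckb was highest in the control at 19.3 RPM, followed by Ckmt2 (5.06), Alpl (5.04), Gamt (4.47), Slc6a8 (3.21) and Gatm (0.525). Of these, the interval of Ckb did not overlap that of Ckmt2, and Ckmt2, Alpl, Gamt and Slc6a8 all overlapped. Gatm overlapped Gamt. In the cold library the order per kilobase was Ckb (530), Alpl (23.9), Ckmt2 (19.8), Slc6a8 (4.84), Gamt (2.36) and Gatm (0.324). Alpl and Ckmt2 overlapped each other and lay above Slc6a8, which overlapped Gamt, and Gamt overlapped Gatm. A nanopore read stands for 1 molecule whatever its length, so the undivided RPM is the level that compares genes here. The division changed the control order and left the cold order as it was. Undivided, the control order was Ckb, Alpl, Slc6a8, Ckmt2, Gamt and Gatm, and in the cold library the RPM intervals of Slc6a8 (10.7 to 25.7) and Gamt (0.478 to 6.78) did not overlap.

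A list of 42 further genes around the cycle was compared in the same way, and 25 of them reached 20 summed reads. At least 2-fold differences with an interval beyond 1 were found for 3 higher genes, Nnmt, Ckm and Phospho1, and for 0 lower ones, beside the 4.18% and 4.07% of all genes. The intervals of 9 lay above a ratio of 1, those of 5 below it, and 11 included it, and the median log2 ratio was 0.18. The other 22 of the 25 did not meet the rule in either direction.

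Among genes that supply arginine, ornithine and glycine, 5 of 10 had enough reads. Odc1, which turns ornithine into putrescine, was the most read and was 1.85-fold higher (1.42 to 2.42), with 96 and 144 reads, and the other 4 included a ratio of 1. The arginases Arg1 and Arg2 had no reads. Genes of methyl supply and use had 6 of 9 with enough reads. Nnmt, which spends methyl groups of S-adenosylmethionine on nicotinamide as GAMT does on guanidinoacetate, was 11.4-fold higher (7.91 to 17.0). Ahcyl1, related to the hydrolase of S-adenosylhomocysteine and the most read of the group, was 1.42-fold lower (1.21 to 1.66), with 428 and 245 reads. Ahcy, the hydrolase itself, and Ahcyl2 were among the 3 lowest ratios of the list, at 0.636 (0.325 to 1.20) and 0.651 (0.353 to 1.17), and both intervals included 1.

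Other kinases that pass phosphate between nucleotides or to creatine differed little apart from Ckm, which was 4.75-fold higher (3.61 to 6.32). Nme2, a nucleoside diphosphate kinase and the most read of the group, was 1.16-fold lower (1.02 to 1.33). The adenylate kinase Ak1, of the cytosol, was 1.52-fold higher (1.08 to 2.15), and the mitochondrial Ak3 was 1.21-fold lower (1.04 to 1.41). Slc25a5, an ADP/ATP carrier of the inner mitochondrial membrane, had 1039 and 1024 reads and was 1.22-fold higher (1.11 to 1.33), and its relative Slc25a4 was 1.21-fold higher (1.09 to 1.35). The phosphate carrier Slc25a3 was 1.24-fold lower (1.10 to 1.40). Ank, which exports pyrophosphate, was 1.51-fold lower (1.17 to 1.98), and Slc16a12, another creatine carrier, had no reads.

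**Figure D5:**
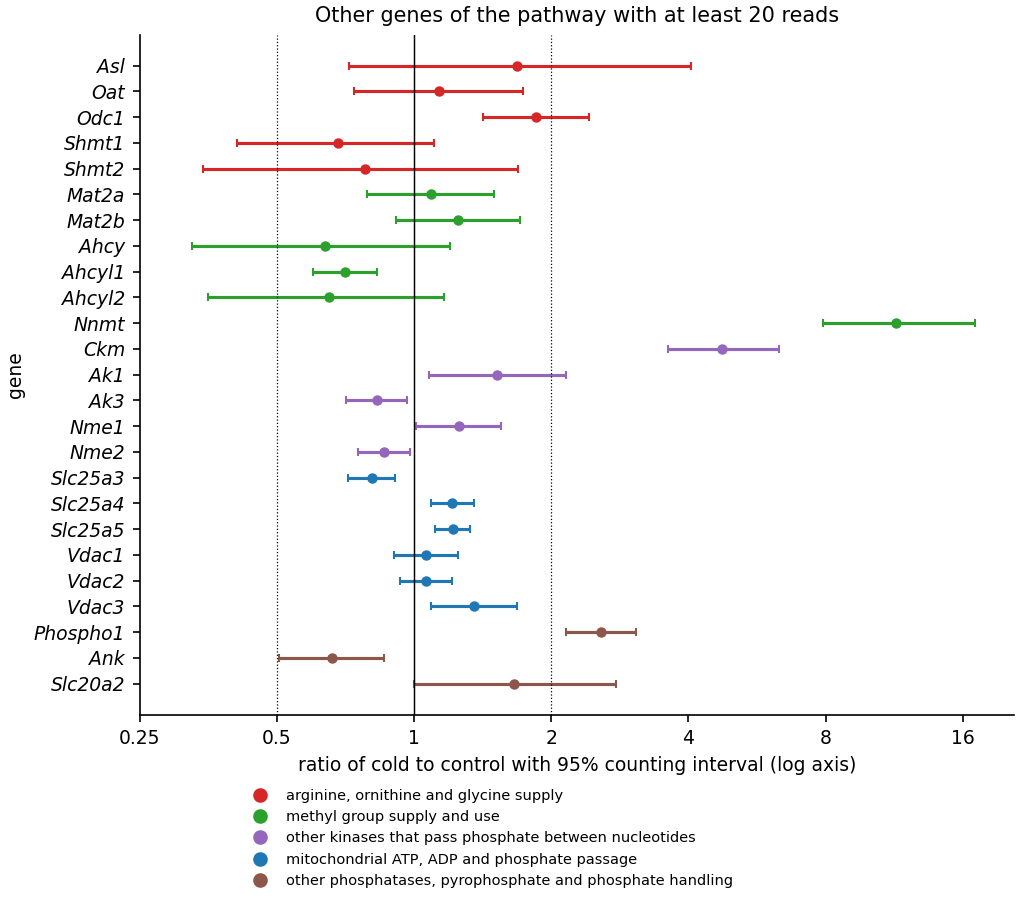
Ratio of cold to control on a log axis with 95% counting intervals for the 25 related genes with at least 20 summed reads, coloured by role. The solid line is a ratio of 1 and the dotted lines mark 2-fold. Nnmt, Ckm and Phospho1 lie above 2, and no gene lies below 0.5.

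In all, 1698124 control and 1215617 cold reads were counted. The tissue label was set beside 12 markers of brown adipocytes and of adipocytes in general. They had 2.74% and 3.69% of reads and none at 0, with Fabp4 (20610 and 20787 reads) and Ucp1 (14860 and 14526) the most read. Fabp4 is a gene of adipocytes in general, so the sum cannot tell brown fat from another fat depot. Ucp1, the gene of brown fat, alone had 0.875% and 1.19% of reads. The summed ratio of the 12 was 1.19 (1.17 to 1.20), which rests largely on Fabp4 and Ucp1. By the 2-fold rule 3 of the 12 were higher and 0 lower, beside the 4.18% and 4.07% of all genes. Of the 12, the intervals of 7 lay above a ratio of 1, those of 2 below it, and 3 included it. The 3 higher genes were Elovl3 (180 and 731 reads, ratio 5.01), Dio2 (59 and 284, 5.94) and Ppargc1a (27 and 132, 6.03). The intervals given above for Alpl and Ckmt2 include these 3 ratios as well as that of the muscle marker sum. Which of these Alpl and Ckmt2 go with was not tested. The mesothelial genes Wt1, Upk3b, Msln and Krt19 had 0 reads in both libraries. Summed markers of nerve and Schwann cells, which also make much Ckb, had 176 and 126 reads (ratio 0.883, 0.697 to 1.12). S100b (100 and 75 reads) and Mbp were the most read, and Mag, Nefl, Nefm and Th were at 0 in both. Of these 11 markers, only 3 had enough reads for the 2-fold rule, so the sum rests largely on S100b. The part of nerve and Schwann cell RNA in the Ckb result was not tested. Mural markers, led by Rgs5 and Acta2, had a summed ratio of 1.02 (0.868 to 1.21), endothelial markers, led by Egfl7 and Kdr, 1.12 (0.985 to 1.26), macrophage markers, led by Lyz2 and C1qa, 1.42 (1.09 to 1.83), and erythroid markers, led by Hba-a2 and Hbb-bs, 0.876 (0.834 to 0.920). The epididymal and mesothelial list, led by Retn (70 and 118 reads) and Lep (36 and 5), summed to 107 and 145 reads (ratio 1.67, 1.29 to 2.17). Its genes did not move together: Lep, leptin, was 5.84-fold lower (2.28 to 19.1), Retn, resistin, 2.08-fold higher (1.53 to 2.84), and Nnat, with 1 and 22 reads, had a ratio of 27.1 (4.39 to 1120). What part another depot has in the Ckb result was not tested. The muscle list above had the highest summed ratio of the marker lists, 4.10, with measured markers from 1.46 to 17.3, beside 27.4 for Ckb.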

How the data were processed

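Read counts per transcript were deposited by the authors as whole numbers, 1 file per library, with no normalization and no transcript below 1 read listed. The submitters' processing notes name minimap2 and GRCm38. What aligner version and annotation were used, and what was done with a read matching several transcripts, is not given in the sources used here. Per the labels' protocols, a direct RNA kit was used on 500 ng of poly(A)+ RNA.

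Transcripts were matched by identifier without version to GENCODE mouse M21. Those with no gene took 0.0571% of control and 0.0652% of cold reads and stayed in the library size. Library sizes were multiplied by TMM factors (edgeR 4.0.16, R 4.3.3) of 0.940 and 1.06. Folds are ratios of scaled counts, with 95% intervals from the Clopper-Pearson interval of the cold share. Log2 ratios used a prior of 0.5 reads. Levels have exact Poisson intervals, shares exact binomial ones and differences of shares Newcombe ones. Ratios between 2 genes have conditional exact intervals (scipy 1.17.1). The limit for 0 reads is 3 reads. No fold is given where both counts are 3 or fewer. Code was tested on simulated data.

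Named genes are the 7 members, the 3 highest and 3 lowest ratios of the related list with the most abundant gene of each role, the 2 most read genes of each marker list, the 3 genes nearest to Ckb, and member transcripts with at least 10 reads. Other genes and transcripts were named after their values were seen. An item of the related list is not reported here and was left out of its counts. Members and lists were chosen with earlier results of these data known. Alternatives were total counts with and without mitochondrially encoded genes, DESeq2 1.42.0 size factors, transcript choice, read minimum and prior.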

Additional observations from a re-analysis of the deposited data

How the results depend on the processing

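No paired analysis was possible because each group is 1 library. Ckb, Ckmt2, Alpl, Slc6a8 and Gamt kept the sign of their log2 ratio, and stayed within their main interval, under each scaling, prior and choice of transcripts tried. Ckb ranged from 4.69 (Ckb-201 alone) to 4.94 (total counts). Gatm and Ckmt1 had too few reads for a ratio. Slc6a8 and Gamt went furthest, from 0.58 to 1.33 and from -0.83 to -1.64 with the most read transcript alone. Slc6a8-203 alone, with a ratio of 0.308, was not among the choices tried. Of 75 values, 8 moved beyond the tolerance, which was the main interval for a gene, 1.5 times for a count and 0.1 for a median log2 ratio. With total counts the median of all genes shifted to 0.17, the median of the members to 2.24 and that of the related genes to 0.36. With total counts without mitochondrially encoded genes these were 0.13, 2.20 and 0.31. With no read minimum the members' median was 1.25. With at least 100 summed reads, only Ckb was left, so that 1 member was at least 2-fold higher and the median was 4.76, and the median of the related genes was 0.28. The count of related genes at least 2-fold higher, 3, was 4 with total counts, with total counts without mitochondrially encoded genes, with protein-coding transcripts only and with no read minimum, and 2 without Ckm. The related list without Ckm and the addition of processed copies to Ckb were chosen after seeing the data. Depth limits Gatm, Gamt, Ckmt1 and the transcript shares of Slc6a8 most. Processes between the animals and the counts, such as dissection and pooling, have no replicate here.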
